A study of Mus musculus with 6 samples.

Results

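Lipid droplet genes were examined in microglia isolated from the brains of LACTB enzymatically dead (ED) and wild-type (WT) mice. LACTB is a mitochondrial serine hydrolase that forms filaments between the mitochondrial membranes, and the ED mice were homozygous for the S162I substitution, which replaces the serine of its active site. The 10 genes were taken by name from the table of polyadenylated RNA sequencing values: the droplet coat genes Plin2 and Plin3, the esterifying enzymes Dgat1, Dgat2 and Soat1, the lipolysis genes Pnpla2, Abhd5, Lipe and Mgll, and Hilpda. All 10 were present among the 15954 genes of the table. There were 6 libraries, 1 per mouse at 3 months of age, with 3 ED mice and 3 WT mice, and no treatment was named for either genotype. Brains had been dissociated enzymatically and cells carrying the myeloid surface protein CD11b had been collected on magnetic beads. The study also measured the mutant in other tissues of these mice, so the allele was not limited to microglia, and an effect that began outside them cannot be told apart from one that began within.

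Lipid droplets are stores of triacylglycerol and cholesteryl ester inside a single layer of phospholipid. Perilipins coat the surface, DGAT and SOAT enzymes make the esters that fill the core, and a chain of lipases releases fatty acids from it again for mitochondria and for signalling lipids. Microglia that take up myelin or cell debris, or that age, are known to accumulate such droplets, and the study had measured lipids and droplets in other LACTB-deficient myeloid cells, so the comparison here asks whether the transcripts of this machinery differed in microglia of ED mice.

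No lipid droplet gene passed the test of ED against WT microglia, and their levels lay close together. With limma on log2(value + 1), none of the 10 passed an adjusted p of 0.05 (0.0% of all 15954 genes did, so this fit held no call in the whole table). None of the 10 had an unadjusted p below 0.05, which 1.82% of all genes had (0.602% higher and 1.22% lower in ED). ED values were higher for 4 of the genes and lower for 6, and the median fold change was -0.02 on the log2 scale (all genes: 7757 higher, 8197 lower, median -0.0033). The median size of the change, ignoring its sign, was 0.05 on the log2 scale for the lipid droplet genes and 0.08 for all genes. The 95% intervals of all 10 fold changes included no change. For 9 of the 10 they also lay within a 1.5-fold difference in either direction, and for 8 within 25% of the WT level. Hilpda had an interval that reached further up than 25%, and that of Dgat2 was wide enough to hold a 1.5-fold change either way. These are bulk values, in which fewer cells of a type and less RNA per cell cannot be told apart.

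The table gave reads divided by a size factor for each library, here called normalized read counts. From the spacing of these values, reads in the listed genes were inferred as 23394686 to 28122336 per library. Lactb itself was at 1491 ± 32.8 in ED and 1475 ± 85.0 in WT microglia (SD, n = 3 each), a log2 fold change of 0.02. A substitution need not alter the level of a transcript, so this does not check the genotype labels. The microglia markers were all measured, 11 of 11, with summed values of 972516 to 1051376 in ED and 971861 to 1161180 in WT libraries. No adipocyte marker (0 of 5) was in the table. Among markers of other cells, the 10 neuronal transcripts summed to 2344 to 2955 in ED and 3306 to 3501 in WT libraries, without overlap. Of these 10, 7 were lower in ED at an unadjusted limma p below 0.05, as were 1.22% of all genes. WT mouse 2 had the highest sums of endothelial markers (5961, against at most 3662 in the ED and 3374 in the other WT libraries) and of red cell markers (381, against at most 70.3 in the ED and 62.4 in the other WT libraries).

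The stretches of sequence just before the transcription starts were read for motifs of regulators tied to this pathway, since Hilpda is named for its induction by hypoxia and Plin2 is a known target of peroxisome proliferator-activated receptors (PPARs). RefSeq windows on GRCm38.p6 were found for 8 of the 10 genes, 11 windows in all, and the 250 bases before each start were searched on both strands. Dgat1 and Dgat2 had no window. The core recognised by hypoxia-inducible factors, ACGTG or GCGTG, was present in 7 of the 11 windows, from 6 genes, and in 38.6% of all 32851 windows. The half-site AGGTCA, of which nuclear receptors such as PPARs bind pairs, was in the windows of Plin2 and Abhd5 and in 14.02% of all windows. The matches are shown for a coat gene, a sterol esterifying enzyme, the lipase activator and Hilpda, each as 25 bases 5′ to 3′ on the gene's strand with the match in capitals; numbers give the first base of the match before the RefSeq start. CACGC and TGACCT are GCGTG and AGGTCA read on the other strand.
Plin2, -86, chr4:86670131-86670155 minus strand: ttggggttccCACGCcctcatcccc
Plin2, -218, chr4:86670263-86670287 minus strand: tcaggaccccTGACCTaagtcagac
Soat1, -66, chr1:156474380-156474404 minus strand: atgggaggggGCGTGgcagtgggcg
Abhd5, -18, chr9:122351588-122351612 plus strand: ggcagcgcatGCGTGtctgcgaggc
Abhd5, -69, chr9:122351537-122351561 plus strand: ggcgtcgggcTGACCTtccttacca
Hilpda, -111, chr6:29272505-29272529 plus strand: accgcgagccGCGTGctttccgtga
Hilpda, -43, chr6:29272573-29272597 plus strand: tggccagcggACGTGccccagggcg
Hilpda, -8, chr6:29272601-29272625 plus strand: tcgtgcaggttcggtacGCGTGcgc

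Hilpda thus held 3 cores before the downstream of its 2 RefSeq starts, which lies inside the annotated gene, and none before the upstream start. Mgll held more matches to the core, 4 in window 1 and 7 in window 2, and Lipe held 3 in window 1 and 0 in window 2. Plin3 and Pnpla2 held neither motif. Both had the GC box GGGCGG, which was also found for Abhd5, Mgll, Hilpda and Lipe and is in 32.7% of all windows. A match is a string of letters, and binding was not measured.

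The genes were expressed at very different levels. To compare genes, normalized read counts were divided by the length of the merged exons, in kb. Merged exons take in every annotated exon, used or not in these cells, so levels and ratios per kb depend on the annotation. Pnpla2 stood highest at 880 ± 21.5 per kb in ED and 896 ± 71.9 in WT microglia, above 91.4% of all genes, and Mgll followed at 499 ± 72.2 in ED and 519 ± 51.7 in WT. Both encode lipid hydrolases, the first acting on triacylglycerol and the second on monoacylglycerol. Next came 4 genes at similar levels, Lipe (303 ± 6.30 in ED, 311 ± 4.12 in WT), Plin2 (260.4 ± 14.1 in ED, 274 ± 34.6 in WT), Soat1 (273 ± 17.1 in ED, 259 ± 16.3 in WT) and Dgat1 (255 ± 15.3 in ED, 246 ± 16.2 in WT). Neighbours within this group did not separate beyond their spread. Lipe exceeded Plin2 in 5 of 6 libraries, Plin2 exceeded Soat1 in 2 of 6, and Soat1 exceeded Dgat1 in 5 of 6. Below them Plin3 was at 157 ± 12.4 in ED and 151 ± 4.52 in WT, Hilpda at 115 ± 2.64 in ED and 101 ± 16.6 in WT, and Abhd5 at 66.0 ± 9.68 in ED and 66.2 ± 8.60 in WT. Dgat2 was lowest, at 20.2 ± 7.17 per kb in ED and 20.9 ± 6.77 in WT, above 24.1% of all genes. Each of the other steps in the order held in 6 of 6 libraries with no overlap of ranges.

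**Figure D1:**
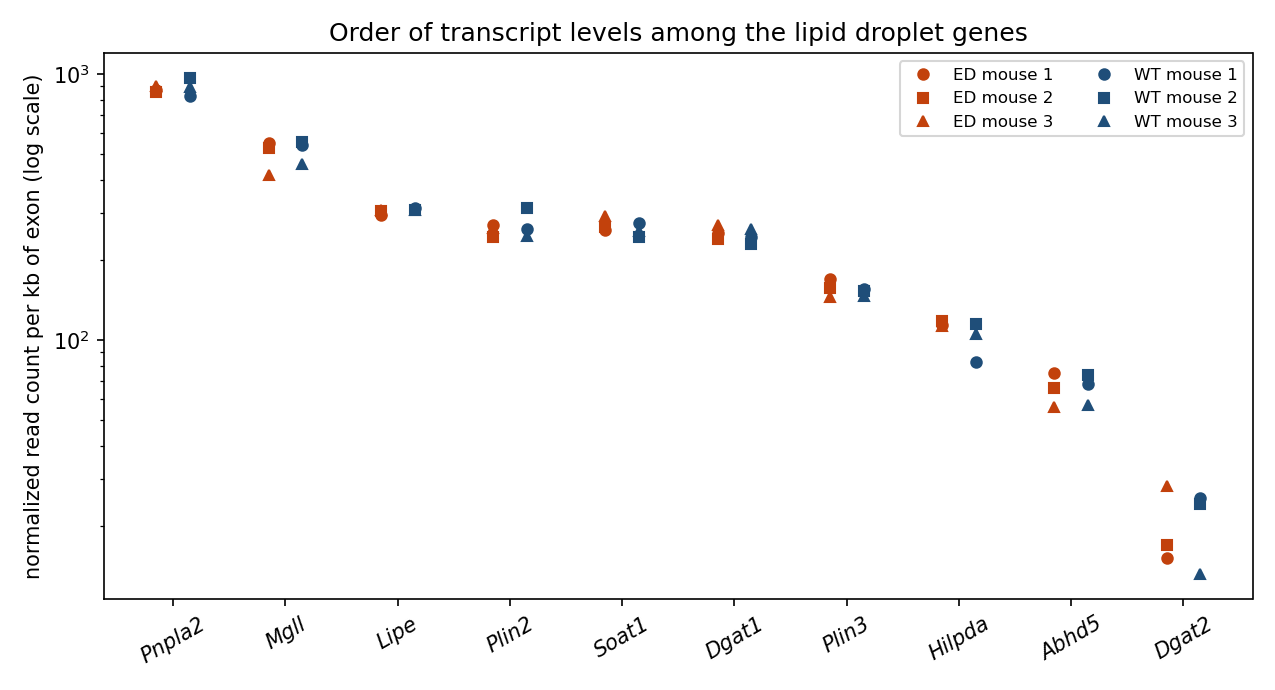
Normalized read count per kb of merged exon on a log scale for the 10 lipid droplet genes, ordered by their mean over 6 libraries, with ED mice left of WT mice for each gene. Lipe, Plin2, Soat1 and Dgat1 lie at a shared level, Pnpla2 lies highest and Dgat2 lowest, in ED and in WT mice.

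Plin2 and Plin3 encode perilipins that are made also outside fat tissue. Plin2 is bound to droplets nearly all the time and its protein is degraded when it is free, while Plin3 moves between the cytosol and young droplets. Plin2 (chr4:86648386-86670060) had normalized read counts of 956, 859.5 and 928 in ED mice 1 to 3 and of 923, 1100.5 and 868 in WT mice 1 to 3. The highest value was that of WT mouse 2 and the lowest that of ED mouse 2, and the genotypes overlapped. The log2 fold change was -0.07 ± 0.11 (SE), an interval of -19.2% to 12.3%, with an exact two-sided permutation p of 0.7. WT mouse 2 is the library with the high endothelial and red cell markers, and without it the Plin2 fold change was 0.03; the part of those markers in the Plin2 value was not tested. Plin3 (chr17:56277476-56292873) was at 642, 595 and 548 in ED mice and at 587, 578 and 554 in WT mice. The ED values enclosed the WT values, and mean levels were 595 ± 47.0 in ED and 573 ± 17.1 in WT (log2 fold change 0.05 ± 0.10, exact p of 0.5). Per kb, Plin2 exceeded Plin3 by 1.66 ± 0.143 times in ED and 1.81 ± 0.209 times in WT microglia, with single libraries between 1.56 and 2.05 and an exact p of 0.4.

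**Figure D2:**
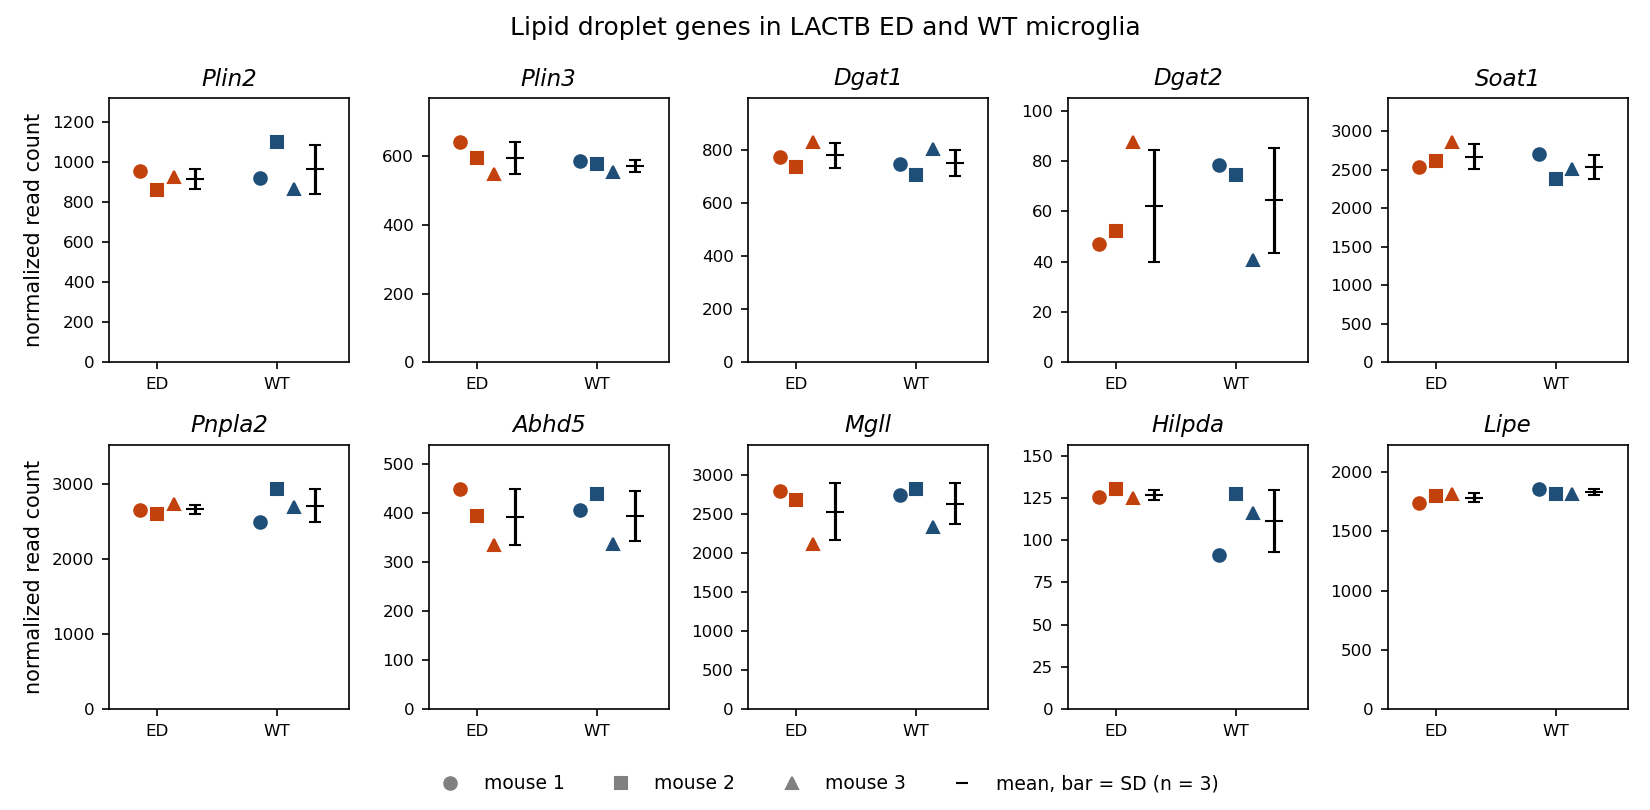
Normalized read count of each lipid droplet gene (linear axes from 0, one scale per panel) in the ED mice on the left and the WT mice on the right of each panel, with symbols for mice 1, 2 and 3 and the mean with its SD beside them. ED and WT points overlap in every panel except that of Lipe, where the gap is 0.942 of a normalized read.

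The enzymes that fill the droplet core were next. Dgat1 and Dgat2 encode unrelated enzymes that both add the last fatty acid of triacylglycerol, and Soat1 encodes the enzyme that esterifies cholesterol in macrophages. Dgat1 (chr15:76502015-76511953) was at 775, 736 and 829.5 normalized reads in ED mice, against 747, 704 and 803 in WT mice. Mouse 3 was highest and mouse 2 lowest in each genotype, and the ranges overlapped over most of their width. Its log2 fold change was 0.06 ± 0.09, an interval of -10.1% to 20.1% (exact p of 0.5). Soat1 (chr1:156424525-156474331) was at 2538, 2614 and 2858 in ED mice and at 2701, 2384 and 2512 in WT mice. ED mouse 3 was the highest of the 6 and WT mouse 2 the lowest. The means were 2669.7 ± 167 in ED and 2532 ± 159.5 in WT microglia, a log2 fold change of 0.08 ± 0.08 with an interval of -7.41% to 20.04% (exact p of 0.4). Soat1 and Dgat1 had nearly the same level per kb, at a ratio of 1.07 ± 0.0434 in ED and 1.05 ± 0.0763 in WT microglia.

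Dgat2 (chr7:99153658-99182719) was the weakest and the most variable of the 10. Its normalized read counts were 46.9, 52.1 and 87.5 in ED mice and 78.5, 74.4 and 40.5 in WT mice, which correspond to 37 to 96 inferred reads per library. ED mouse 3, WT mouse 1 and WT mouse 2 were high and ED mice 1 and 2 and WT mouse 3 were low, so each genotype held both kinds of library. The coefficient of variation was 35.6% in ED and 32.4% in WT, and the highest library exceeded the lowest 2.16 times. The means, 62.2 ± 22.1 in ED and 64.5 ± 20.9 in WT, gave a log2 fold change of -0.05 ± 0.32 and an interval of -41.2% to 59.0%. Any Dgat2 change within that interval was compatible with these values. The ratio of Dgat1 to Dgat2 per kb therefore ranged from 9.54 to 19.99 over the libraries, with means of 13.5 ± 3.62 in ED and 13.04 ± 6.02 in WT. The profile of Dgat2 over the 6 libraries was most like that of Pdcd1 (root-mean-square difference of 0.17 on the log2 scale), then Tmem154 (0.20) and Bub1b (0.22), out of 10979 genes with a mean of at least 100. Pdcd1, which encodes the inhibitory receptor PD-1, was at 121, 121 and 167 in ED and 156, 176 and 105 in WT mice. The search picked it for this likeness over 6 libraries, so the shared pattern is not a separate result.

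Triacylglycerol is taken apart in steps. Pnpla2 encodes adipose triglyceride lipase (ATGL), which removes the first fatty acid, Abhd5 encodes its activator CGI-58, Lipe encodes hormone-sensitive lipase, which acts mainly on diacylglycerol and on cholesteryl ester, and Mgll encodes monoacylglycerol lipase, which also degrades the endocannabinoid 2-arachidonoylglycerol. Pnpla2 (chr7:141455198-141460743) was at 2646, 2598 and 2726 normalized reads in ED mice and at 2495, 2928 and 2695 in WT mice. The 3 ED values lay within the WT range, and its log2 fold change was -0.02 ± 0.08, an interval of -13.4% to 11.8% (exact p of 0.8). Abhd5 (chr9:122351608-122381524) was at 449.8, 395 and 335 in ED mice and at 407, 439 and 338 in WT mice. ED mouse 3 and WT mouse 3 were lowest at nearly the same value, and the means of 393 ± 57.7 in ED and 395 ± 51.2 in WT differed by -0.01 ± 0.14 on the log2 scale. The lipase exceeded its activator 13.6 ± 2.29 times per kb in ED and 13.7 ± 1.85 times in WT microglia, most in mouse 3 of each genotype. Abhd5 shares 950 exon bases with the antisense gene A730085K08Rik, and the sources used here do not say if strand was used in counting.

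Mgll (chr6:88724412-88828360) showed the same pair of low libraries as Abhd5. It was at 2800.2, 2682 and 2115 in ED mice, against 2749.6, 2824 and 2337 in WT mice. ED mouse 3 and WT mouse 3 were again lowest and the other 4 libraries lay between 2682 and 2824. Deviations of ED mouse 3 and WT mouse 3 from their genotype means also correlated at 0.35 across 12377 genes, so their likeness was not limited to Abhd5 and Mgll. The log2 fold change was -0.06 ± 0.12, an interval of -20.7% to 15.3% (exact p of 0.6). Without ED mouse 3, the fold changes of Abhd5 and Mgll were 0.10 and 0.06, and Abhd5 was also above 0 without WT mouse 1 (0.0183) or WT mouse 2 (0.0728). Mgll shares 167 exon bases with the antisense gene Gm26588.

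Lipe (chr7:25379527-25398710) was the steadiest of the 10. Its normalized read counts were 1741, 1797 and 1811 in ED mice and 1856, 1815 and 1812 in WT mice. All ED values were below all WT values, but the highest ED and the lowest WT library were only 0.942 normalized reads apart. Lipe was the only one of the 10 genes whose genotypes did not overlap, a pattern shown by 5.74% of all genes (3.42% lower and 2.32% higher in ED), and its exact p of 0.1 is the smallest that 3 mice against 3 can give. The means were 1783 ± 37.1 in ED and 1828 ± 24.3 in WT microglia, a log2 fold change of -0.04 ± 0.07 with an interval of -12.7% to 8.99% and an unadjusted limma p of 0.628. Its residual SD over libraries was 0.025 on the log2 scale, against a median of 0.11 for the 10 genes and 0.17 for all genes. Lipe shares 918 exon bases with the antisense gene 4732471J01Rik, which was listed at a mean of 102 over the 6 libraries. Relative to Lipe, Pnpla2 stood at 2.90 ± 0.0770 per kb in ED and 2.89 ± 0.262 in WT microglia, and Mgll at 1.65 ± 0.265 in ED and 1.67 ± 0.159 in WT.

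Hilpda encodes a small droplet protein that is induced by hypoxia and by fatty acids and inhibits ATGL. Its gene (chr6:29272488-29275446) had normalized read counts of 126, 130.2 and 125 in ED mice and of 91.4, 127 and 116 in WT mice. The 3 ED libraries were close together, WT mouse 2 lay among them, and WT mouse 1 was low. Hilpda had the largest fold change of the 10, at 0.20 ± 0.17 on the log2 scale, with an interval of -11.9% to 49.2% and an exact p of 0.3. The spread was 2.29% of the mean in ED and 16.4% in WT. Without WT mouse 1 the fold change was 0.06. The genes nearest to Hilpda in their profile over the 6 libraries were Dctd (root-mean-square difference of 0.05 on the log2 scale), Fam162a (0.06) and Rad52 (0.07), of 10978 genes searched. Fam162a was at 233, 258 and 239 in ED mice and 188, 255 and 214 in WT mice. It was picked for its likeness to Hilpda, so the shared low value in WT mouse 1 follows from the search.

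**Figure D3:**
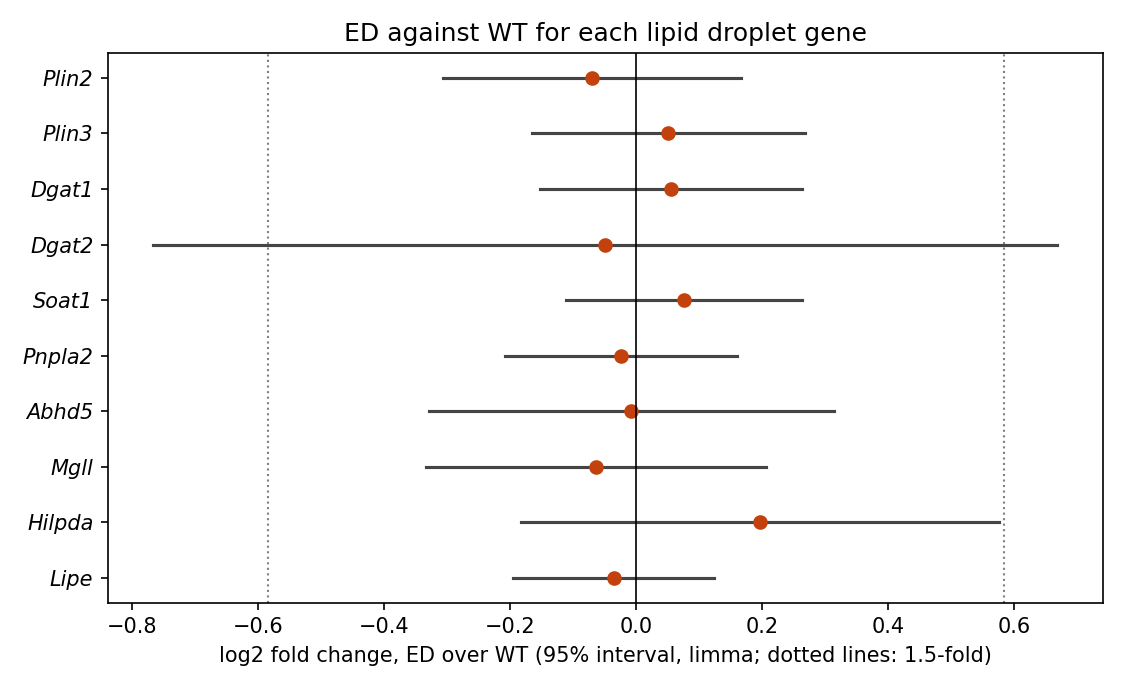
Log2 fold change of ED over WT for each lipid droplet gene with its 95% interval from limma, with dotted lines at a 1.5-fold difference. Every interval crosses 0, and only that of Dgat2 passes the dotted lines.

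The genes did not move together by genotype. The summed normalized read counts of the 10 genes were 12721, 12458 and 12363 in ED mice and 12635, 12974 and 12076 in WT mice, so the ED sums lay inside the WT range. In ED mice 1 to 3, 6, 5 and 6 of the 10 genes were above their own mean over the 6 libraries, and in WT mice 1 to 3, 6, 7 and 3 were. WT mouse 2 and WT mouse 3 were the extremes, with median deviations of 0.12 and -0.06 on the log2 scale. For 7 of the 10 the residual SD lay under the median of all genes, a value that splits all genes evenly. Hilpda was among the 7 only narrowly, at 0.1740 against 0.1742. Spread was not compared with that of genes at matched levels.

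**Figure D4:**
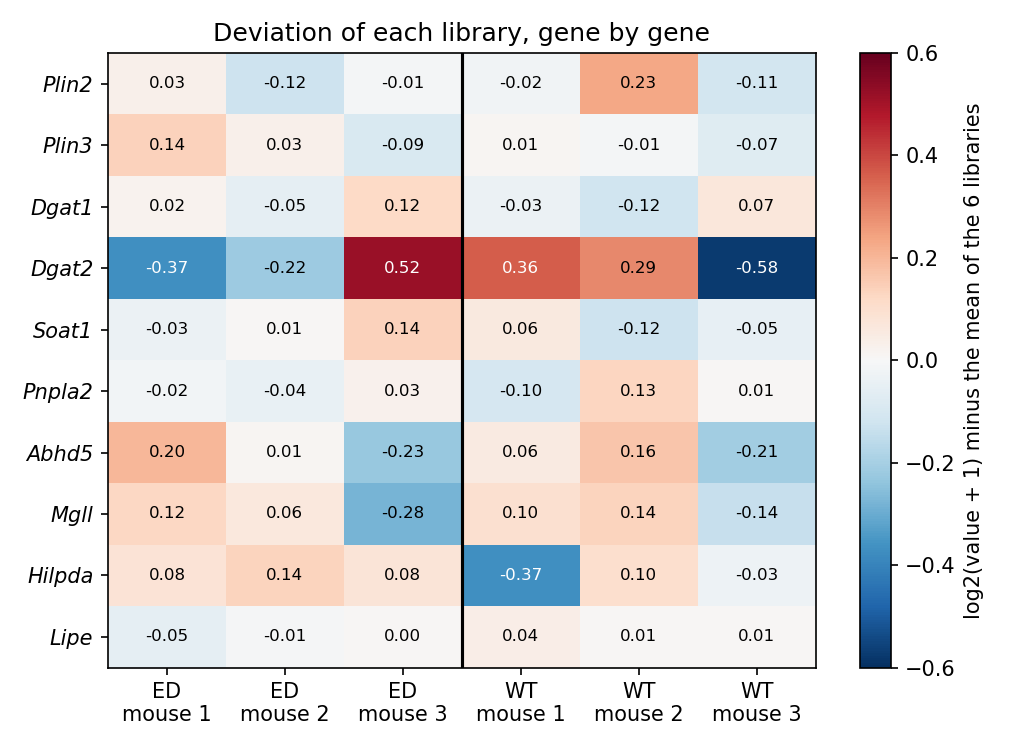
Deviation of log2(value + 1) from the mean of the 6 libraries for each lipid droplet gene (rows) and mouse (columns, ED left of the line, WT right of it), with the value in each cell. Dgat2 spans -0.58 to 0.52 without regard to genotype, Lipe stays between -0.05 and 0.04, and Abhd5 and Mgll are low in mouse 3 of both genotypes.

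The rest of the droplet surface was measured through 14 of 20 further coat and assembly genes. In ED microglia 4 were higher and 10 lower (median -0.04 on the log2 scale), and none passed an adjusted or an unadjusted p of 0.05. The most abundant was Aup1, which encodes a droplet and endoplasmic reticulum protein, at 6144 ± 106 in ED and 5917 ± 436 in WT microglia. Hsd17b11, a droplet-bound dehydrogenase, was at 5549 ± 297 in ED and 5733 ± 844 in WT, and Spg20, which encodes spartin, was at 2539.7 ± 107 in ED and 2613 ± 166 in WT. The smallest p belonged to Cideb, a droplet fusion gene best known in liver, at 12.2, 13.02 and 13.7 in ED and 12.9, 4.90 and 4.38 in WT mice (unadjusted limma p of 0.0820), followed by Fitm2, which supports droplet budding, at 297 ± 21.2 in ED and 321 ± 29.0 in WT. The perilipins of fat and muscle, Plin1 and Plin5, and the fusion genes Cidea and Cidec were among 6 genes with no row in the table.

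Of 20 further genes of neutral lipid synthesis 16 were measured, 5 higher and 11 lower in ED, with a median of -0.04 and no gene at an unadjusted p below 0.05. Agpat3, an acyltransferase of the phosphatidic acid step, was at 5185 ± 110 in ED and 5427 ± 202 in WT. The phosphatidate phosphatase Lpin2 was at 4157 ± 177 in ED and 4045 ± 402 in WT, and Acsl5, which activates fatty acids, was at 2709.8 ± 167 in ED and 2798 ± 236 in WT. Soat2, the sterol esterifying enzyme of liver and intestine, had values of 351, 441 and 571 in ED and 267, 228 and 449 in WT mice. Its log2 fold change was 0.56 ± 0.25 with an unadjusted limma p of 0.0502, and WT mouse 3 lay above ED mice 1 and 2. Agpat5 was at 569 ± 38.8 in ED and 625 ± 45.7 in WT. Soat1, the macrophage enzyme described above, was at 0.08 in the same fit.

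Of 17 further genes of neutral lipid breakdown 14 were measured, 9 higher and 5 lower in ED, with a median of 0.02 and none at an unadjusted p below 0.05. The lysophospholipid and monoacylglycerol hydrolase Abhd12 was at 27247 ± 1879 in ED and 27646 ± 2499 in WT. Daglb, which makes 2-arachidonoylglycerol, was at 8504 ± 87.4 in ED and 8376 ± 593 in WT, and Pnpla7, a lysophospholipase, was at 6833 ± 340.3 in ED and 6748 ± 263 in WT. The smallest p values were those of Ddhd2, a triacylglycerol lipase of the brain (1328 ± 125 in ED, 1220.0 ± 171 in WT, unadjusted limma p of 0.297), and Pnpla8, a mitochondrial and peroxisomal phospholipase (1253 ± 90.8 in ED, 1344 ± 125 in WT).

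Uptake of fatty acids and lipoproteins was measured through 12 of 13 genes. Of these, 4 were higher and 8 lower in ED, and the median was -0.10 on the log2 scale. None passed the adjusted threshold, but 3 were lower at an unadjusted limma p below 0.05, a level that 1.22% of all genes reached in that direction. The intracellular fatty acid carrier Fabp5 was at 152, 162 and 167 in ED mice and at 257, 236 and 228 in WT mice, without overlap (-0.58 ± 0.13, unadjusted p of 0.00113). Lpl, the lipoprotein lipase that frees fatty acids outside the cell, was at 1352, 1636 and 1572 in ED mice and at 2073, 2029.7 and 1551 in WT mice. WT mouse 3 lay within the ED range of Lpl, and its log2 fold change was -0.30 ± 0.13 (unadjusted p of 0.0370). Fabp3, a fatty acid carrier of heart and neurons named here after its values were seen, was at 27.2, 30.1 and 41.9 in ED and 58.1, 50.9 and 40.5 in WT mice (-0.59 ± 0.26, unadjusted p of 0.0486). Only Fabp5 was left at that level without ED mouse 1, without WT mouse 1 or without WT mouse 2. The shares of all genes lower at that level were then 0.997%, 0.727% and 1.38%. Fabp5 and Lpl were left without ED mouse 2 (0.934% of all genes). All 3 were left without ED mouse 3 (1.76%) or WT mouse 3 (1.94%). The summed neuronal markers were lower in the same ED libraries, and their part in these values was not tested. The scavenger and lipoprotein receptor Lrp1 was at 43613 ± 4991 in ED and 44922 ± 13115 in WT, and the fatty acid transporter Slc27a1 was at 1753 ± 87.7 in ED and 1561 ± 216 in WT.

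**Figure D5:**
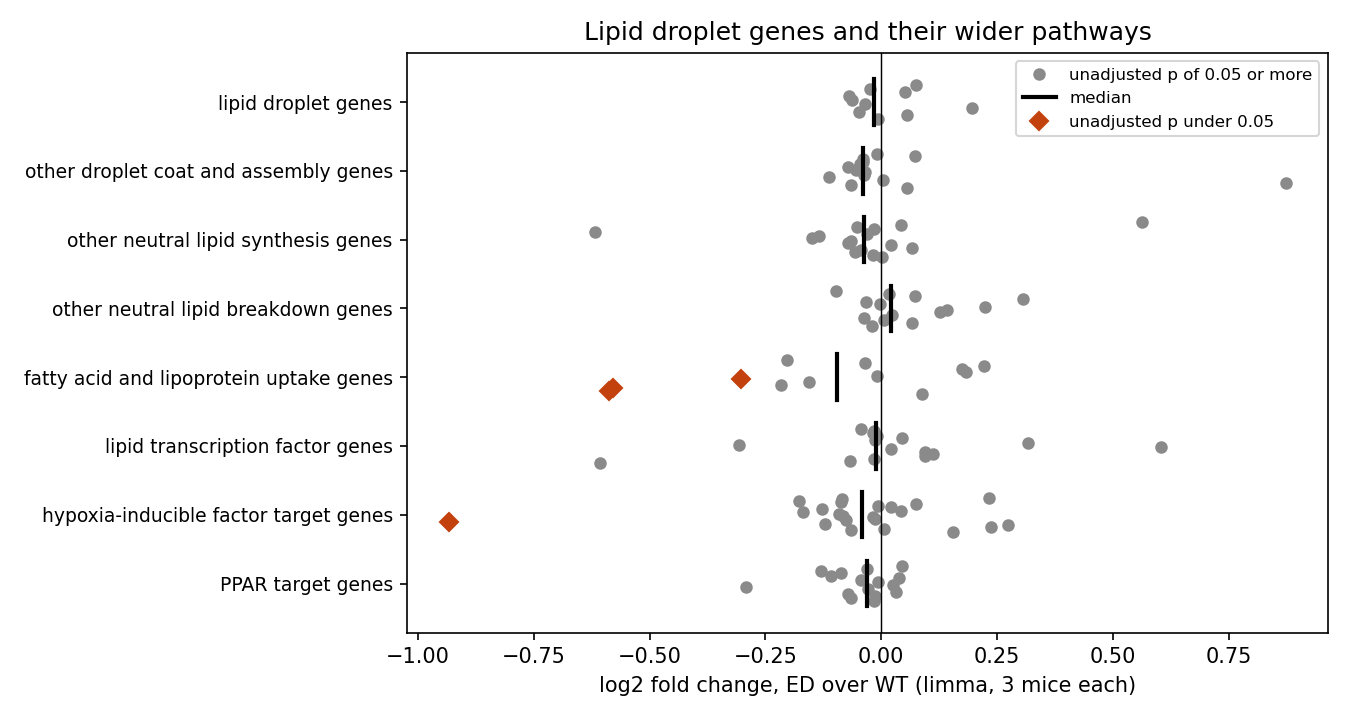
Log2 fold change of ED over WT for every measured gene of the lipid droplet set and of 7 related lists, with the median of each list as a bar and genes at an unadjusted limma p below 0.05 as diamonds. The diamonds are 3 uptake genes and 1 hypoxia-inducible factor target, all lower in ED, and none is a lipid droplet gene.

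The regulators of these genes were measured as well. Of 17 transcription factor genes of lipid metabolism 16 were in the table, 7 higher and 9 lower in ED, with a median of -0.01 and none at an unadjusted p below 0.05. Tfe3, a regulator of lysosomes and lipid breakdown, was at 6725 ± 272 in ED and 6796 ± 366 in WT, Rxrb, a partner of PPARs, at 4172 ± 174 in ED and 4046 ± 167 in WT, and the glucose-sensing factor Mlxip at 3743 ± 692 in ED and 3574 ± 1003 in WT. Epas1, which encodes HIF-2alpha and is abundant in endothelium, was at 953, 725 and 741 in ED and 923, 2075 and 947 in WT mice (-0.61 ± 0.27, unadjusted limma p of 0.0514). The high value was that of WT mouse 2, which also had the highest endothelial markers, and their part in it was not tested. Pparg was near the low end of the table at 18.7, 14.03 and 10.03 in ED and 6.45, 7.83 and 13.1 in WT mice.

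Targets of hypoxia-inducible factors and of PPARs were counted in the same way. Of 23 genes known to be induced by hypoxia-inducible factors 22 were measured, 8 higher and 14 lower in ED (median -0.04). The most abundant were the glycolytic genes Hk2 (10389 ± 867 in ED, 10472 ± 492 in WT) and Pfkfb3 (5382 ± 507 in ED, 5399 ± 258 in WT) and the collagen prolyl hydroxylase gene P4ha1 (8309 ± 390.4 in ED, 8067 ± 551 in WT). The only one of the 22 at an unadjusted p below 0.05 was Egln3, a HIF prolyl hydroxylase, beside 1.82% of all genes in either direction and 1.22% lower in ED. Egln3 was at 30.9, 49.1 and 41.0 in ED and 86.1, 82.2 and 63.5 in WT mice, without overlap (-0.93 ± 0.24, unadjusted limma p of 0.00334, adjusted p of 1.0). The neuronal marker sums were lower in the same ED libraries, and their part in the Egln3 values was not tested. Vegfa was at 339 ± 36.5 in ED and 289 ± 36.0 in WT, a log2 fold change of 0.23 ± 0.13 with an unadjusted limma p of 0.117. Without WT mouse 3 the count was 2, with Ndrg1 beside Egln3, while the share of all genes lower at that level was 1.94%, against 1.22% with all libraries. All 16 PPAR target genes were measured, 4 higher and 12 lower in ED with a median of -0.03 and none at an unadjusted p below 0.05. The mitochondrial fatty acid oxidation genes Hadha (3848 ± 151 in ED, 4164 ± 487 in WT), Hadhb (1376 ± 95.7 in ED, 1465 ± 162 in WT) and Acadm (1924 ± 125 in ED, 1939 ± 46.7 in WT) were among the most abundant of them or had the smallest p values, and the largest fold change among these was that of Hadha, -0.11 on the log2 scale.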

How the data were processed

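Microglia of 3 ED and 3 WT mice were compared, grouped by the genotype and mouse number in each title. Named in the submitters' processing notes are Trimmomatic 0.36, STAR 2.5.2b, featureCounts of Subread 1.5.2, DESeq2 and genome build GRCm38. The authors deposited signal values, made by dividing each library's gene read counts by a size factor, since every value was a whole multiple of 1 step (tolerance 0.0001). The smallest mean in the table was 9.87, so weaker genes were not analysed here. Columns deposited by the authors with their own log2 fold changes and p-values were not used.

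ED was set against WT on log2(value + 1) with limma 3.58.1 in R 4.3.3 (genotype only, mean-variance trend), and p-values were adjusted by Benjamini-Hochberg over all 15954 genes. Fold changes are on that scale and are understated for weak genes. All sentences that give an exact p refer to a two-sided permutation test of log2(value + 1), or of the log2 ratio where a ratio is given. All intervals are 95% limma intervals. Nothing in the labels says more of the mice than their number, so p-values measure the spread between these libraries. A count model was planned for counts and was not run, because the deposited values are normalized and in the ED libraries the smallest value above 0 stood at 2 steps, not 1, so that read numbers there are inferred from the spacing. Exon lengths and coordinates were from GENCODE M21 (GRCm38), which 15917 identifiers matched, and promoter windows from RefSeq (GRCm38.p6). The procedure was tested on simulated data. The changes set there were larger than those of the lipid droplet genes, so it does not show if changes of their size would be found.

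The lipid droplet genes and all lists were chosen with earlier results of these data known. Of each pathway list the text names the 3 genes with the highest mean and the 2 with the smallest p, and for the 2 most variable lipid droplet genes the 3 nearest profiles among genes with a mean of at least 100. One gene that this rule takes is not reported here. Marker lists of other brain cells (astrocytes, oligodendrocytes, border macrophages, monocytes and neutrophils) had overlapping sums in ED and WT libraries, as had immediate early genes (121872 to 199824 in ED, 171941 to 253610 in WT). The alternatives tried were other pseudocounts, a minimum mean of 50, 2 other scalings, no trend, a replicate block and leaving out each library.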

Additional observations from a re-analysis of the deposited data

How the results depend on the processing

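No lipid droplet gene passed an adjusted or an unadjusted p of 0.05 under any alternative run. The median fold change of the 10 genes lay between -0.0334 and 0.0352 on the log2 scale when 1 library was left out, and between -0.0156 and -0.0105 under the other pseudocounts, scalings, filter and trend settings. Only leaving out a library turned the sign of a gene. The leave-one-out range was -0.14 to 0.0292 for Plin2, -0.0048 to 0.11 for Plin3, -0.35 to 0.12 for Dgat2, -0.0807 to 0.0349 for Pnpla2, -0.11 to 0.10 for Abhd5 and -0.15 to 0.0606 for Mgll. Dgat2 turned without ED mouse 1, ED mouse 2, WT mouse 1 or WT mouse 2. The cause was not tested. With a replicate block the median stayed at -0.0156 and 0 lipid droplet genes passed. Deviations of same-numbered mice from their genotype means correlated at -0.25, 0.05 and 0.35 across 12377 genes. For differently numbered mice the correlations ran from -0.40 to 0.40, so the numbers were not taken to pair the mice. In all genes the count at an unadjusted p below 0.05 was 290, against 403 with the block, 180 with a minimum mean of 50, 498 without the trend and 912 without WT mouse 3, and 0 passed the adjusted threshold in each. The uptake genes lower at an unadjusted p below 0.05 numbered 1 to 3 and the hypoxia-inducible factor targets 1 to 2 when 1 library was left out, alternatives added after seeing the data. The share of all genes lower at that level ranged from 0.727% to 1.94% in these fits. Dgat2 had 37 to 96 inferred reads per library and the widest interval of the 10 genes.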
